A study of Mus musculus with 62 samples.

Results

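Hmgcs1, Idi1, Fdft1, Sqle, Cyp51, Srebf2 and Insig1 were described here as cholesterol synthesis genes in mouse hippocampus and in a hippocampal cell line. They were chosen by gene name and are 7 of the 53975 gene identifiers in the deposited gene tables. All 7 were found in every library, and all 7 passed the filter on low values in each fit. The study set hippocampi of App knock-in mice beside those of control mice and treated cultured cells with amyloid beta peptide. RNA came from the left and right hippocampus of each mouse. One genotype was APP NL-G-F (called APP below), in which the mouse App gene carries a humanised amyloid beta stretch and mutations of familial Alzheimer's disease. It was set beside C57BL/6J mice (called WT), with 3 APP mice at each of 3, 6 and 12 months and 2, 3 and 3 WT mice at those ages. HT-22 cells, an immortalised mouse hippocampal line, were at passage 4. For 24 h they were given LNA, an oligonucleotide with locked bases, either directed at Hsf1 (150 nM) or scrambled (stated in the labels as 50 uM). Every culture then received 30 uM of a peptide in DMSO, which was either amyloid beta 1-42 (Aβ42) or the reverse sequence 42-1. There were 4 cultures each of Aβ42 and reverse peptide under scramble LNA, and 3 of each under anti-Hsf1 LNA. All cultures thus carried an LNA and a peptide, and none was untreated. The labels do not say whether the cultures of a group were grown separately, so p-values measure the spread between these samples, which may be technical.

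Cells make cholesterol from acetyl-CoA through mevalonate, isoprenoids and squalene. The transcription factor SREBP2 drives most genes of this route when sterols in the endoplasmic reticulum are low, while INSIG proteins hold SREBP2 and its escort SCAP there when sterols are high. The adult brain makes its own cholesterol, since lipoproteins of the blood do not cross the blood-brain barrier, and myelin-forming oligodendrocytes and astrocytes are known as large producers.

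The genes lie on 4 chromosomes of GRCm38, with coordinates as the deposited tables give them. Hmgcs1 (ENSMUSG00000093930) encodes the synthase that makes HMG-CoA and lies on the plus strand at chr13:119690379-119708260. Idi1 (ENSMUSG00000058258), at chr13:8885501-8892451 on the plus strand, encodes the isomerase that provides dimethylallyl diphosphate. Fdft1 (ENSMUSG00000021273), at chr14:63145150-63179578 on the minus strand, encodes squalene synthase, the first step given over to sterols. Sqle (ENSMUSG00000022351), at chr15:59315077-59331192 on the plus strand, encodes squalene epoxidase, a rate-limiting step. Cyp51 (ENSMUSG00000001467), at chr5:4081145-4104746 on the minus strand, encodes lanosterol 14-alpha-demethylase. Srebf2 (ENSMUSG00000022463), at chr15:82147181-82205379 on the plus strand, encodes SREBP2 itself. Insig1 (ENSMUSG00000045294), at chr5:28071363-28078662 on the plus strand, encodes an INSIG protein and is itself an SREBP target. All but Sqle and Insig1 overlap another gene in these coordinates, and the library kit named in the labels does not mark strand, so reads of overlapping stretches cannot be told apart. The end of Fdft1 shares 774 bases with Ctsb, whose mean level in hippocampus was 94.2 scaled TPM, and Cyp51 shares 166 bases with Akap9 (23.2 scaled TPM). The noncoding genes that overlap Hmgcs1, Idi1 and Srebf2 had mean levels of at most 1.62 scaled TPM.

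The stretches upstream of the RefSeq start of 5 of the 7 genes are printed with matches to fixed motifs of SREBP2 and its partner NF-Y. They are taken from RefSeq (GRCm38.p6), 5′ to 3′ on the strand of the gene, from 150 bases before the start of transcription to the base before it. Capitals mark the sterol element core CACNCCAC and the NF-Y box CCAAT on either strand. Sterol elements of other letters were not searched, so the lack of a mark does not show the lack of a site. RefSeq starts differ from those of the deposited tables, and the stretches of Idi1, Cyp51, Srebf2 and Insig1 reach into the gene as the deposited coordinates give it. The table has no entry for Fdft1 and Sqle.
Hmgcs1, chr13:119690201-119690350, plus strand: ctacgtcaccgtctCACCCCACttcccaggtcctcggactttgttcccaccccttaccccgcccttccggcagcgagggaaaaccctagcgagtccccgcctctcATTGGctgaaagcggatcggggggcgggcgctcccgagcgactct
Idi1, chr13:8885456-8885605, plus strand: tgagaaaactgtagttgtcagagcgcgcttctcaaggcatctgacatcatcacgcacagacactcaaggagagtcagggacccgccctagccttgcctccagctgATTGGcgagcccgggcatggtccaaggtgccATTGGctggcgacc
Cyp51, chr5:4104698-4104847, minus strand: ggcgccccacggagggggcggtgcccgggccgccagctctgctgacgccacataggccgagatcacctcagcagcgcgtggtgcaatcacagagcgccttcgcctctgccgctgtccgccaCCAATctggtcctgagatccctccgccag
Srebf2, chr15:82147119-82147268, plus strand: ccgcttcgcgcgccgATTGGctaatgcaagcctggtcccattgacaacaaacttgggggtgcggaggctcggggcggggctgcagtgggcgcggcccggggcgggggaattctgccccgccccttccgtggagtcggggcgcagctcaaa
Insig1, chr5:28071262-28071411, plus strand: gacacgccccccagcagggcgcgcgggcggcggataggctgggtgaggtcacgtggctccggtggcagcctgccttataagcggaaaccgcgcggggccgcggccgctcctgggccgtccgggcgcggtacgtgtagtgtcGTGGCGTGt

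In windows from 250 bases before to 50 bases after the start, on both strands, a CCAAT box was in 5 of the 5 genes with an entry. It was in 13 of 14 other synthesis genes with an entry and in 41.06% of all 27025 genes with an entry. A gene was counted if any of its windows held the motif. For Insig1 the match lies 216 bases before the start, outside the printed stretch. The Sp1 motif GGGCGG was likewise in 5 of 5, in 12 of the 14 other genes and in 38.2% of all genes with an entry. CACNCCAC was in Hmgcs1 and Insig1, in 1 of the 14 other genes and in 7.12% of all genes with an entry. The longer TCACNCCAC, which contains it, was in Hmgcs1, in 0 of the 14 other genes and in 1.44% of all genes with an entry. A match describes the letters of the window and not a bound site.

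Levels are given as scaled TPM, the deposited TPM, a measure of abundance per transcript length, divided by a factor for each library (the median over genes of the ratio to the geometric mean over libraries). Factors ran from 0.688 to 1.46 for hippocampus (17 libraries) and from 0.639 to 1.23 for HT-22 cells (14 libraries), and relative depth, the ratio of Coverage to FPKM, from 1.42 to 3.04 and from 0.724 to 2.60. Xist was high in the 9 APP and the 2 WT libraries of 3 months and under 1 in the 6 WT libraries of 6 and 12 months, which held the Y-linked Ddx3y at 18.8 to 28.2 scaled TPM. Sex, which the labels do not give, therefore cannot be told apart from genotype at 6 and 12 months. In the contrasts of WT mice with those of 3 months it cannot be told apart from age. The average of the genotype difference over ages and its change with age use these groups and carry the same limit. All 8 neuronal markers were present in hippocampus, whereas 6 of 8 were below 1 in every HT-22 library and 4 (Snap25, Syt1, Rbfox3 and Gad1) were at 0. Hsf1, the LNA target, was 43.1 to 52.6 scaled TPM under anti-Hsf1 LNA and 43.2 to 71.3 under scramble, a difference on the average of both peptides of -0.26 log2 (adjusted p = 0.582). A lowering of the target was thus not shown, and groups are named by their labels. A set of 3 scramble libraries stood apart, namely replicates 3 and 4 under Aβ42 and replicate 4 under reverse peptide. The summed level of 8 immediate-early genes was 1062 to 1236 scaled TPM in them and 128.4 to 202.1 in the other 11, and results in HT-22 cells are given with and without them.

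In hippocampus the 7 genes kept a fixed order at the top. Hmgcs1 was highest in all 17 libraries, with a lowest, median and highest level of 71.8, 85.1 and 109.6 scaled TPM. Srebf2 (34.2, 50.4 and 60.0) stood above Insig1 in 17 of 17 libraries, and Insig1 (25.6, 35.2 and 42.3) stood above Sqle in 17 of 17. Sqle, Cyp51 and Fdft1 could not be ordered. Their medians were 23.6, 23.5 and 21.6 scaled TPM, Sqle exceeded Cyp51 in 8 of 17 libraries, and Cyp51 exceeded Fdft1 in 10 of 17. Idi1 was lowest of the 7 in level, at 10.7, 12.9 and 20.2 scaled TPM, and below Fdft1 in 17 of 17. The scatter of Cyp51 within groups (SD 0.11 on the log2 scale) was below that of most genes of like level, with 12.8% of 7629 genes of mean 10 to 250 scaled TPM having a lower one. The scatter of Idi1 was larger (SD 0.21, 63.5% of genes lower), so small changes of Idi1 were harder to see.

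**Figure D1:**
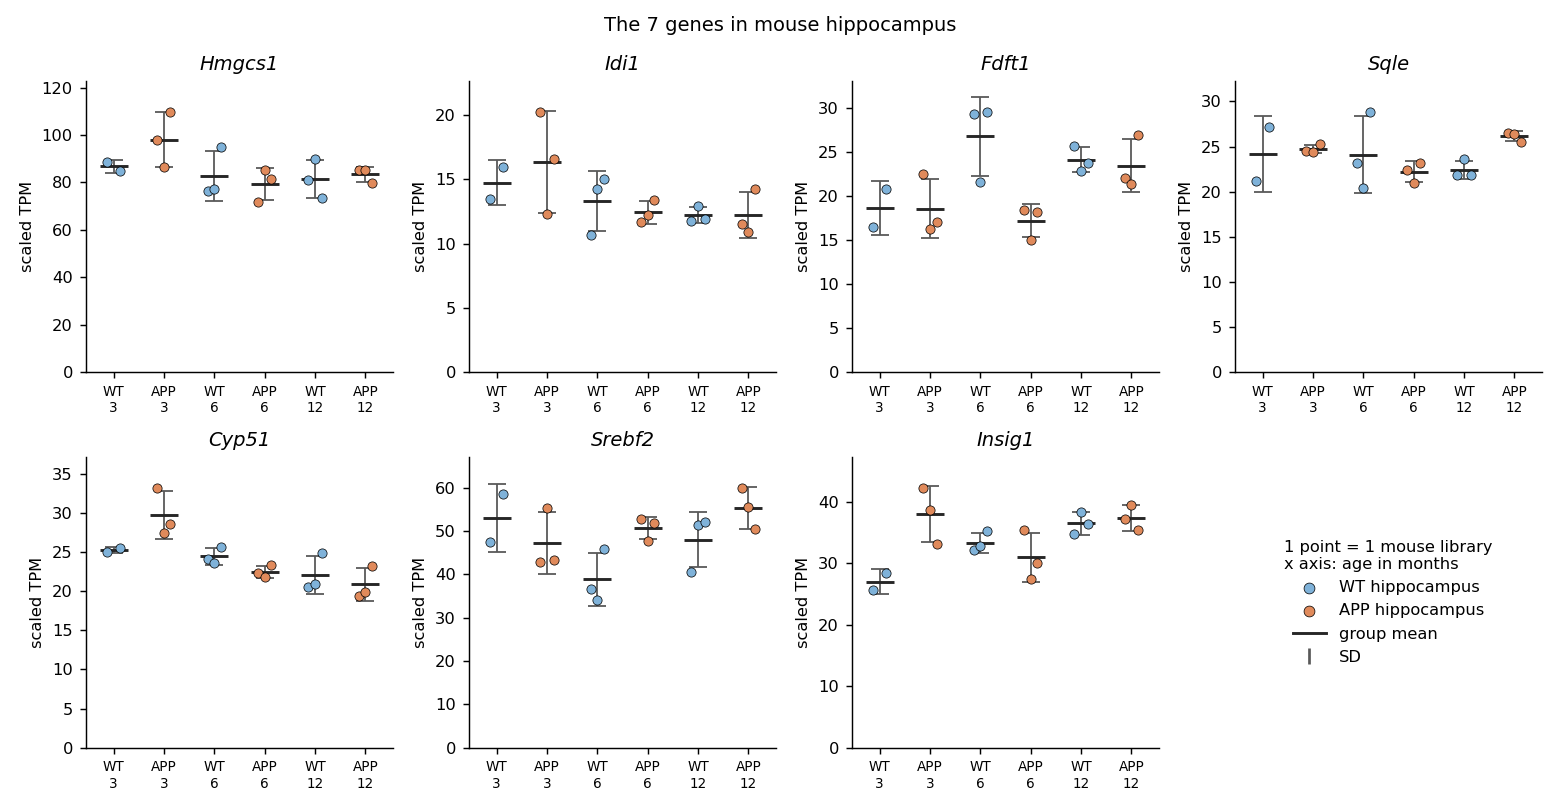
Scaled TPM (y axis, from 0) of the 7 genes in each hippocampus library, by genotype and age in months (x axis); points are mice, bars the group mean and whiskers the SD. Groups of a gene lie close together, and the APP mice of 3 months (Cyp51 27.5 to 33.2) and the WT mice of 6 months (Fdft1 21.6 to 29.5) hold the points farthest from the rest.

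APP and WT hippocampus did not differ in any of the 7 genes at the threshold used (adjusted p below 0.05, limma, adjusted over all 17767 genes tested). None was called at 3 months, where 0.304% of all genes were called, none at 6 months (1.71%), none at 12 months (0.433%) and none on the average of the ages (0.242%). The change of the genotype difference with age was called for 0 of 7 genes as well, against 0.467% of all genes. At an unadjusted p below 0.05 there were 1 of 7 genes at 3 months, 2 at 6 months, 0 at 12 months, 1 on the average and 2 for the change with age, beside 13.4%, 17%, 7.03%, 12.3% and 16% of all genes. The median change of the 7 genes was 0.12, -0.10 and 0.03 log2 at 3, 6 and 12 months, beside 0.0039, -0.0011 and -0.0048 over all genes. All 95% intervals for a single gene and age lay between -0.93 and 0.73 log2, which is the size of change that these groups leave room for. In whole tissue, fewer cells of a type and less RNA per cell cannot be told apart.

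Insig1, the sterol-dependent brake, came nearest to the threshold at 3 months. Its levels were 42.3, 38.7 and 33.2 scaled TPM in the 3 APP mice and 25.6 and 28.5 in the 2 WT mice. The groups did not overlap, the APP mice being higher, and the fitted change was 0.47 ± 0.12 log2 (SE, adjusted p = 0.11). Without APP replicate 3, the lowest APP value, the same test called it (0.57 log2, adjusted p = 0.0328), beside 2.13% of all genes. That was 1 of 5 omissions of a library, with adjusted p up to 0.353, and 0 of 11 other settings called it. Cyp51 also did not overlap at 3 months, at 33.2, 27.5 and 28.6 scaled TPM in APP against 25 and 25.6 in WT, with a change of 0.22 ± 0.11 log2 (adjusted p = 0.431). With 3 mice against 2, such separation was common, at 27.1% of all genes. All 8 oligodendrocyte markers were higher in APP at this age (median 0.47 log2, none called), with summed levels of 1574 to 2638 scaled TPM against 1468 to 1544. The markers of hippocampal subfields stood the other way, with 0 of 5 higher in APP, 1 called and sums of 87.2 to 179.0 against 228.4 to 233.4. The sum of 7 astrocyte markers was likewise lower in APP, at 808.5 to 977.2 against 1036 to 1048. The part of these markers in the values of Insig1 and Cyp51 was not tested.

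At 6 months the largest difference was in Fdft1, which makes squalene. APP mice had 18.4, 15.02 and 18.2 scaled TPM and WT mice 29.3, 21.6 and 29.5. Every APP value lay below every WT value, and the change was -0.60 ± 0.15 log2, just short of the threshold (adjusted p = 0.059). Without WT replicate 2, the lowest WT value, or with genes of mean 5 or more, it was called (-0.75 log2 with adjusted p = 0.0405 beside 0.869% of all genes, and -0.60 log2 with adjusted p = 0.041 beside 3.78%). These were 1 of 6 omissions of a library, with adjusted p (limma) up to 0.198, and 1 of 11 other settings. On TPM as deposited the change was 0.083 log2 (adjusted p = 0.73). Ctsb, which overlaps Fdft1, was 80.1 to 89.0 scaled TPM in APP and 80.6 to 88.1 in WT at this age. The part of Ctsb in the values of Fdft1 was not tested. Srebf2 stood the other way, at 52.7, 47.8 and 51.8 scaled TPM in APP against 36.7, 34.2 and 45.8 in WT (0.38 ± 0.14 log2, adjusted p = 0.173). Fdft1, Cyp51 and Srebf2 were the 3 of 7 genes whose groups did not overlap at 6 months, beside 21.3% of all genes. The sum of 6 choroid plexus markers was 38.8 to 908.5 scaled TPM in APP and 1139 to 1359 in WT at this age. For 5 blood markers it was 90.7 to 137.4 and 175.3 to 226.9. Sums of neuronal, astrocyte, oligodendrocyte and microglial markers overlapped. The part of these markers in the values of the 3 genes was not tested. Relative to 3 months in WT mice, Fdft1 was 0.50 ± 0.17 log2 higher at 6 months and Srebf2 0.44 ± 0.16 log2 lower, and neither was called (adjusted p = 0.211 and 0.229). At 12 months only Sqle did not overlap, at 26.5, 26.4 and 25.5 scaled TPM in APP against 21.9, 23.6 and 21.8 in WT. That change was 0.21 ± 0.12 log2 (adjusted p = 0.804), and 15.6% of all genes did not overlap. Sums of 8 microglial markers were 312.0 to 393.9 scaled TPM in APP and 141.2 to 165.3 in WT at 12 months. Those of 7 astrocyte markers were 1425 to 1597 and 1063 to 1112. Neuronal markers stood the other way, with sums of 2153 to 2281 in APP and 2297 to 2505 in WT. The part of these markers in the values of Sqle was not tested.

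**Figure D2:**
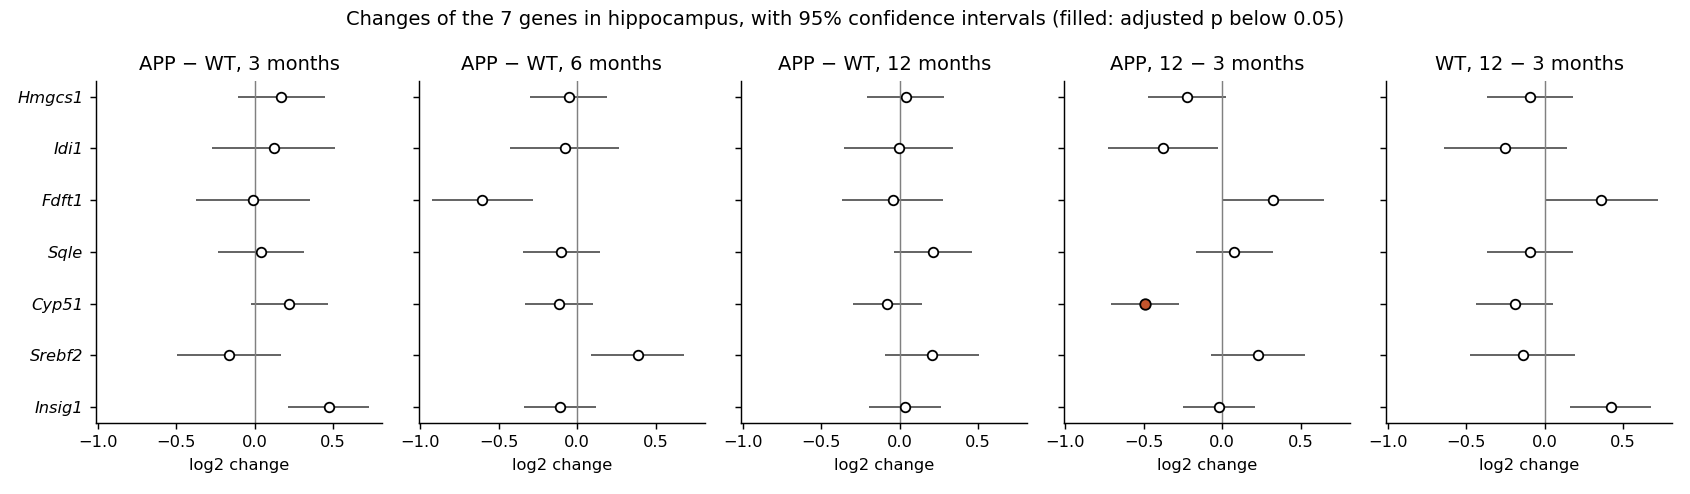
Log2 change (x axis) of the 7 genes (y axis) in 5 hippocampus contrasts, with 95% confidence intervals from limma; filled points have an adjusted p below 0.05. Cyp51 between 12 and 3 months in APP mice (-0.49) is filled, and the other intervals that do not reach 0 are those of Insig1 at 3 months, Fdft1 and Srebf2 at 6 months, Idi1 and Fdft1 from 3 to 12 months in APP mice, and Insig1 and Fdft1 in WT mice.

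Across age, Cyp51 fell in APP hippocampus, the one change of the 7 genes in mice that passed the test. APP mice had 33.2, 27.5 and 28.6 scaled TPM of Cyp51 at 3 months, 22.3, 21.8 and 23.3 at 6 months, and 19.4, 20.0 and 23.3 at 12 months. From 3 to 12 months the change was -0.49 ± 0.10 log2 (adjusted p = 0.0181), and 1.37% of all genes were called lower in that contrast. In the same contrast Idi1 (-0.38 ± 0.16 log2, adjusted p = 0.258) and, in the other direction, Fdft1 (0.33 ± 0.15 log2, adjusted p = 0.299) had an unadjusted p below 0.05, so that 3 of 7 genes did, beside 16.5% of all genes. The groups of 3 and 12 months did not overlap for Cyp51 and Hmgcs1, lower at 12 months, and for Sqle, higher at 12 months, beside 22% of all genes. WT mice had 25 and 25.6 scaled TPM of Cyp51 at 3 months and 20.5, 21.0 and 24.9 at 12 months, a change of -0.19 ± 0.11 log2 that was not called (adjusted p = 0.7). The genotypes were not shown to differ in this, since the test of the difference itself gave an adjusted p of 0.392. That test also holds the difference in sex markers between WT mice of 3 months and older ones. The call of Cyp51 was lost without APP replicate 1 of 3 months (adjusted p = 0.058), without APP replicate 1 of 12 months (0.0887) and without APP replicate 2 of 12 months (0.0757). It was also lost when only the groups compared were fitted (adjusted p = 0.129) and with TPM as deposited (0.251), while the change stayed between -0.49 and -0.41 log2 in these 5 fits.

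Several marker lists moved in the same contrast. The median change of 8 oligodendrocyte markers from 3 to 12 months in APP mice was -0.72 log2. Their summed level went from 1574 to 2638 down to 1138 to 1265 scaled TPM. In WT mice that sum fell too, from 1468 to 1544 at 3 months to 1004 to 1048 at 12 months. The sum of 8 microglial markers rose in APP mice, with 126.4 to 135.5 at 3 months and 312.0 to 393.9 at 12 months. The sum of 7 astrocyte markers also rose in APP mice, with 808.5 to 977.2 at 3 months and 1425 to 1597 at 12 months. So did the sum of 5 hippocampal subfield markers, with 87.2 to 179.0 and then 200.0 to 217.7. In WT mice the subfield sum was 228.4 to 233.4 at 3 months and 186.2 to 234.9 at 12 months. Akap9, which overlaps Cyp51, was 22.9 to 29.0 scaled TPM at 3 months and 19.2 to 21.4 at 12 months. Ctsb, which overlaps Fdft1, was 99.5 to 101.8 and then 116.1 to 130.8 at these ages. The part of these in the values of Cyp51 and Fdft1 was not tested.

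The other age contrasts had no call among the 7 genes. From 3 to 6 months in APP mice 0 of 7 were called beside 2.38% of all genes, although Cyp51 (-0.39 ± 0.10 log2, adjusted p = 0.0605), Hmgcs1 (-0.30 ± 0.12, adjusted p = 0.181) and Insig1 (-0.29 ± 0.11, adjusted p = 0.166) had an unadjusted p below 0.05, as did 18.6% of all genes. With genes of mean 5 or more, Cyp51 was called (adjusted p = 0.0494) beside 3.9% of all genes. In the APP contrast from 3 to 6 months the median change of 8 oligodendrocyte markers was -1.07 log2. Their sum fell, from 1574 to 2638 at 3 months to 882.3 to 1115 at 6 months. The sum of 7 astrocyte markers rose, with 808.5 to 977.2 scaled TPM at 3 months and 1144 to 1423 at 6 months. That of 5 hippocampal subfield markers rose too, with 87.2 to 179.0 and then 186.5 to 253.1. In WT mice the oligodendrocyte sum also fell, from 1468 to 1544 at 3 months to 807.1 to 1054 at 6 months. The part of these markers in the values of the 7 genes was not tested. From 6 to 12 months in APP mice 0 of 7 were called beside 0.54% of all genes. In WT mice 0 of 7 were called from 3 to 6 months (0.186% of all genes), from 3 to 12 months (0.0619%) and from 6 to 12 months (0%). At an unadjusted p below 0.05 there were 2 of 7 genes in APP mice from 6 to 12 months, beside 11.4% of all genes, and 3, 2 and 1 in the WT contrasts, beside 14%, 8.29% and 6.84%. Insig1 had the largest change with age in WT mice from 3 to 12 months, at 25.6 and 28.5 scaled TPM and then 34.7, 38.4 and 36.4 (0.42 ± 0.12 log2, adjusted p = 0.335). The summed level of the 7 genes ranged from 223.8 to 283.6 scaled TPM over all mice, with group means of 235.4 to 272.7.

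The other genes of the route had no call either. Among the 7 other mevalonate and isoprenoid genes and the 10 other sterol genes, none was called in the contrasts of APP and WT at any age or with age in APP mice. At 3 months 7 of the 7 mevalonate and isoprenoid genes were above 0 in APP against WT, with a median of 0.25 log2. The SREBP escort Scap differed by -0.12, 0.04 and -0.08 log2 between genotypes at 3, 6 and 12 months, and none of these was called. From the lists outside synthesis, which hold 9, 3, 9 and 8 genes, 2 genes passed in APP mice from 3 to 12 months. Of all genes 3.27% were called in that contrast, counting both directions. Mylip, an LXR-driven ubiquitin ligase, rose by 0.69 ± 0.15 log2 (adjusted p = 0.0255), from 3.93, 5.78 and 6.28 to 9.34, 8.61 and 9.17 scaled TPM. The fatty acid elongase Elovl6 fell by 0.52 on the log2 scale (SE 0.11, adjusted p = 0.0224), from 22.1, 19.1 and 16.7 to 13.05, 13.01 and 13.02 scaled TPM. Both calls were lost with only the groups compared (adjusted p = 0.132 and 0.118), with TPM as deposited (0.0692 and 0.169) and without each of APP replicate 1 of 3 months and all 3 replicates of 12 months in turn, and that of Elovl6 also without APP replicate 2 of 3 months. These adjusted p without a replicate were 0.0684 to 0.0957 for Mylip and 0.0522 to 0.0856 for Elovl6.

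In HT-22 cells the order of the 7 genes was another one, with Sqle at the top and Fdft1 at the bottom. Sqle had a lowest, median and highest level of 130.6, 148.0 and 209.4 scaled TPM and exceeded Hmgcs1 in 13 of 14 libraries. Hmgcs1, Insig1, Srebf2 and Cyp51 lay together, with medians of 129.6, 128.9, 125.8 and 124.0, and each exceeded the next in this order in 6, 9 and 7 of 14 libraries. Idi1 (21.4, 54.8 and 63.2 scaled TPM) was below Cyp51 in 14 of 14 libraries. Fdft1 (19.9, 25.1 and 37.4) was below Idi1 in 13 of 14.

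**Figure D3:**
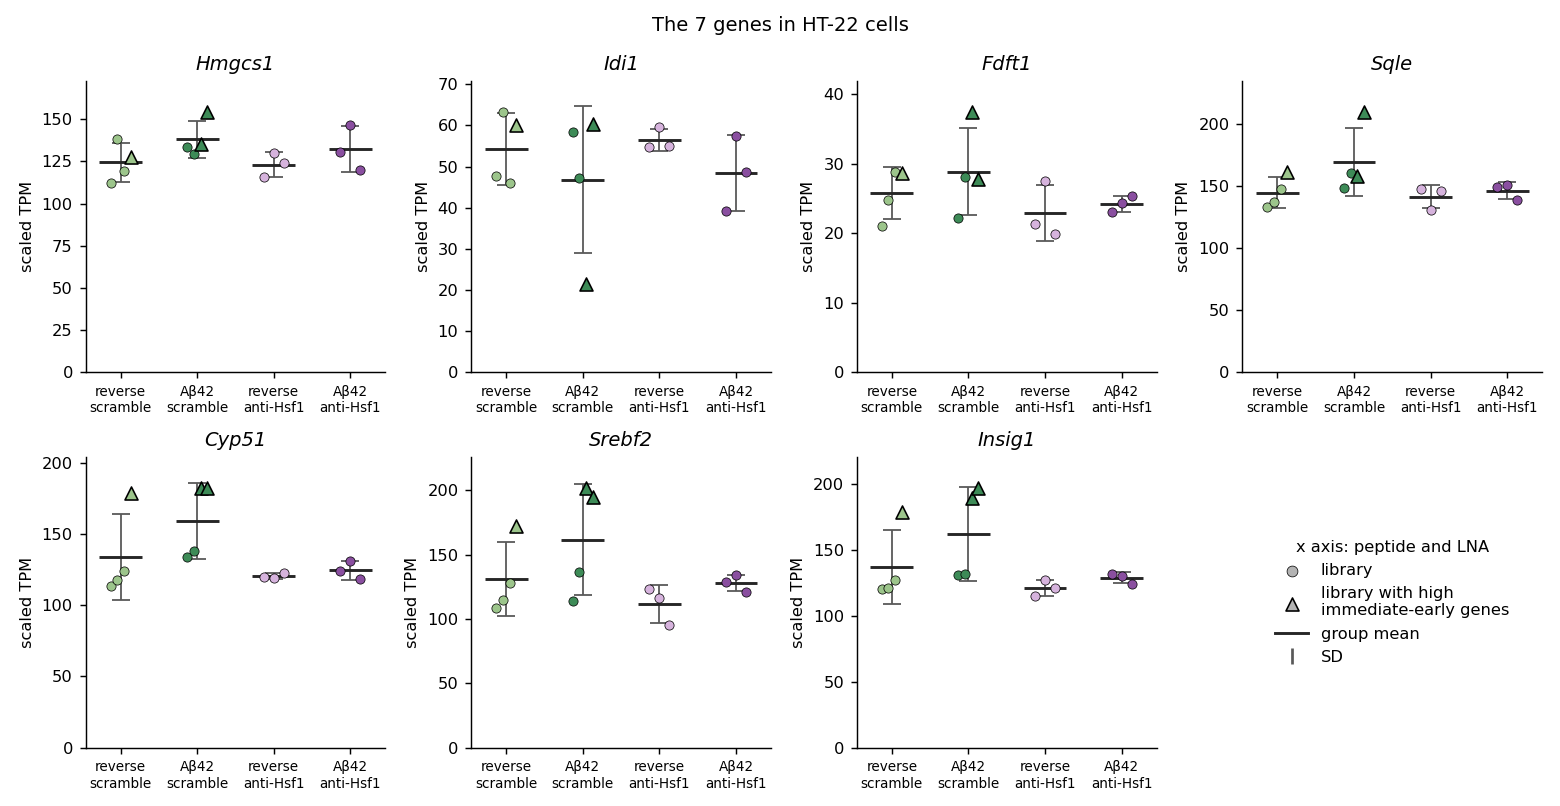
Scaled TPM (y axis, from 0) of the 7 genes in each HT-22 library, by peptide and LNA (x axis); triangles are the 3 libraries with high immediate-early genes, bars group means and whiskers the SD. In the panels of Cyp51, Srebf2 and Insig1 the triangles (172.6 to 201.9) lie above all other points.

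Neither the peptide nor the LNA changed any of the 7 genes at the threshold used. Between Aβ42 and reverse peptide, limma called 0 of 7 genes under scramble LNA, under anti-Hsf1 LNA and on their average, and 0% of the 17224 genes tested in each of the 3 contrasts. Between anti-Hsf1 and scramble LNA it called 0 of 7 under reverse peptide (0% of all genes), under Aβ42 (0.0232%) and on the average (0%), and for the difference of differences 0 of 7 (0%). No gene of the 7 had an unadjusted p below 0.05 in any of these 7 contrasts. The exact permutation test over libraries (two-sided, labels permuted within the other factor) gave 14 values for the averages, the lowest being p = 0.0657 for Hmgcs1 and Sqle between peptides and p = 0.0808 for Cyp51 between LNAs. Intervals were wide, from -0.86 to 0.69 log2 for the peptide under scramble LNA and from -0.74 to 0.74 for the LNA under Aβ42. Of the 17 other synthesis genes none was called in either of these 2 contrasts.

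Between the peptides under scramble LNA, Sqle had the lowest p of the 7 genes. Sqle was 148.2, 160.4, 158.2 and 209.4 scaled TPM under Aβ42 and 133.4, 137.0, 147.2 and 160.9 under reverse peptide, with overlapping groups (0.21 ± 0.11 log2, adjusted p = 0.953). Cyp51 was 133.7, 137.9, 182.3 and 182.0 under Aβ42 and 113.8, 117.9, 124.0 and 178.4 under reverse peptide (0.26 ± 0.15 log2, adjusted p = 0.953). Neither difference stood clear of the spread within its groups. Under Aβ42 and anti-Hsf1 LNA, Cyp51 was 124.0, 131.3 and 118.2 scaled TPM, a change of -0.34 ± 0.16 log2 from scramble (adjusted p = 0.549). Insig1 was 132.1, 130.4 and 124.5 there and 130.9, 132.0, 189.3 and 197.0 under scramble (-0.30 ± 0.17 log2, adjusted p = 0.568). When libraries were weighted by their quality (array weights in limma), these 2 genes were called lower there, with -0.44 log2 for Cyp51 (adjusted p = 0.0361) and -0.45 for Insig1 (adjusted p = 0.0392), beside 6.31% of all genes called lower. Without the 3 libraries that stood apart, the unweighted changes of Cyp51 and Insig1 were -0.13 and -0.03 log2 (adjusted p = 0.737 and 0.953), and those of Sqle and Cyp51 between the peptides 0.15 and 0.19 (adjusted p = 0.735 and 0.627), with 0 of 7 genes called in every one of the 7 contrasts.

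The 3 scramble libraries with high immediate-early genes also had the highest levels of Srebf2, Insig1 and Cyp51. Srebf2 was 201.9, 194.5 and 172.6 scaled TPM in them and 95.1 to 136.5 in the other 11, with a ratio of medians of 1.602. Insig1 was 189.3, 197.0 and 178.4 against 115.3 to 132.1, and Cyp51 182.3, 182.0 and 178.4 against 113.8 to 137.9, with ratios of 1.49 and 1.48. Hmgcs1, Sqle, Idi1 and Fdft1 overlapped between the 2 sets of libraries. Thus 3 of 7 genes lay above the other 11 libraries, as did 4 of the 17 other synthesis genes (Msmo1, Hsd17b7 and Sc5d among them), beside 15.5% of all genes. The proliferation gene Mki67 was lower in them (82.6 to 85.3 against 105.9 to 129.2) and the intermediate filament gene Vim higher (936.7 to 996.0 against 422.8 to 727.7). The part of these in the levels of the 3 genes was not tested. Fatty acid synthesis genes lay above, across or below the other 11 libraries. Among those above, Elovl6 was 33.6 to 35.2 scaled TPM in the 3 libraries and 21.3 to 26.4 in the other 11. Because the 3 libraries were recognised by their values, their difference from the others is a description with no test. Idi1 in replicate 3 under Aβ42 and scramble LNA, at 21.4 scaled TPM, was the lowest value of that gene, the other 13 libraries lying between 39.1 and 63.2.

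Calls between groups differed between TPM as deposited and scaled TPM. On TPM as deposited the median of all genes itself moved by 0.60 log2 between genotypes at 6 months, and 57.6% of all genes were called higher in APP, among them 6 of the 7 (all but Fdft1). In WT mice from 3 to 6 months the median moved by -0.48 log2, with 33.9% of all genes called lower and 5 of 7 of the genes described here (all but Insig1 and Fdft1). The difference between genotypes with age was called for Srebf2, beside 33.1% of all genes. In HT-22 cells the LNA contrast under Aβ42 shifted by -0.62 log2, with 50.5% of all genes called lower and 6 of 7 here (all but Idi1), and its average over peptides called the same number beside 27.5% of all genes. Hmgcs1 and Sqle were called lower for the peptide under anti-Hsf1 LNA (24.2% of all genes), and 4 of 7 for the difference of differences (25.3%). The shares of the 7 genes in these unscaled calls went with shifts of all genes, and the fit on values scaled by the median of ratios made none of them.

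HT-22 cells had more Sqle, Cyp51, Insig1, Idi1 and Srebf2 than hippocampus, while the direction for Hmgcs1 and Fdft1 depended on the scaling. In a fit of all 31 libraries scaled together, Sqle was 1.66 ± 0.06 log2 higher in HT-22 cells, Cyp51 1.48 ± 0.06, Insig1 1.04 ± 0.07, Idi1 0.91 ± 0.11 and Srebf2 0.46 ± 0.08. The adjusted p of these 5 ran from 6.75e-20 to 1.7e-05, and 36.3% of all genes were called higher. Fdft1 was 0.67 ± 0.08 log2 lower and Hmgcs1 0.35 ± 0.05 lower (49.9% of all genes called lower), but both were higher, by 0.21 and 0.56 log2, on TPM as deposited, where 60.1% of all genes were called higher. Hmgcs1 was also not called under upper quartile scaling and quantile normalisation (-0.09 and 0.00 log2). The 5 higher genes were called higher under all 4 scalings and, at 0.35 to 1.61 log2, also without the 3 libraries that stood apart. Levels on this joint scale did not overlap for Sqle (26.8 to 39.0 scaled TPM in hippocampus, 90.7 to 145.4 in HT-22), Insig1 (34.5 to 57.2 and 79.8 to 136.8) and Cyp51 (26.2 to 44.9 and 78.9 to 126.4), 3 of 7 genes beside 50.1% of all genes. Tissue against culture and every other difference between the experiments cannot be told apart in this comparison.

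Ratios of 2 genes within a library do not depend on scaling between libraries. Of the 21 pairs of the 7 genes, 10 did not overlap between the systems, and the pairs named here were picked from the 21. The share over pairs of all genes was not determined. Sqle over Fdft1, the 2 enzymes on either side of squalene, had a median of 1.20 (0.7898 to 1.497) in hippocampus and 5.95 (4.23 to 7.53) in HT-22 cells, without overlap. Hmgcs1 over Sqle went the other way, with a median of 3.50 (3.12 to 4.34) and 0.85 (0.74 to 1.01). Insig1 over Cyp51 had medians of 1.39 and 1.03 with overlapping ranges. As a share of the sum of the 7 genes, Hmgcs1 made up a median of 33.7% in hippocampus and 17.1% in HT-22 cells, while Sqle made up 9.3% and 20.2% and Cyp51 9.7% and 17.3%. Fdft1 took 8.2% and 3.2%, and Srebf2, with overlapping ranges, 19.9% and 17.6%.

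**Figure D4:**
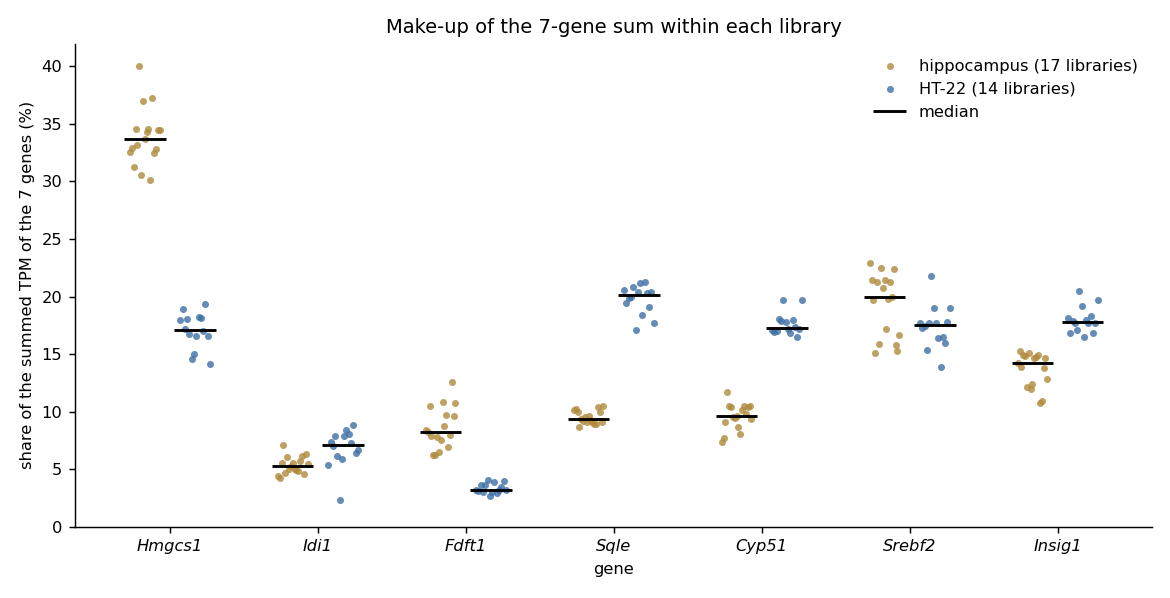
Share of the summed TPM of the 7 genes (y axis, %) taken by each gene (x axis) in each of 17 hippocampus and 14 HT-22 libraries; bars are medians. The shares of Hmgcs1 (33.7% and 17.1%), Sqle, Cyp51, Insig1 and Fdft1 do not overlap between the systems, and those of Idi1 and Srebf2 do. Shares are parts of the same sum, so a larger share of some genes lowers those of others. Levels on the joint scale did not overlap for 3 of the 7 genes, beside 50.1% of all genes.

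The other genes of the route stood on both sides, and their counts are to be read against 36.3% of all genes called higher and 49.9% lower. Under all 4 scalings 37.3% of the 19076 genes tested were called higher and 30% lower. Of 7 other mevalonate and isoprenoid genes, 4 were called higher in HT-22 cells and 2 lower, and of 10 other sterol genes 7 higher and 3 lower, with medians of 0.82 and 0.77 log2 beside -0.22 for all genes. Under all 4 scalings, 4 and 7 of them were called higher and 1 and 0 lower. Lbr, a sterol reductase of the inner nuclear membrane, was 2.13 log2 higher and the farnesyl diphosphate synthase gene Fdps 1.71 higher, whereas the geranylgeranyl diphosphate synthase gene Ggps1 was 1.89 lower. Among SREBP regulators 5 of 9 were higher and 3 lower, with Scap 0.44 log2 lower and, on TPM as deposited, 0.45 higher, and 5 higher and 0 lower under all 4 scalings. Of the SREBP2 targets outside synthesis, 2 of 2 that could be tested were higher. Genes of oxidation, esterification and LXR were mixed, with 5 of 8 lower and 3 higher (4 and 3 under all 4 scalings). Cyp46a1, which makes the form of cholesterol that leaves the brain, was 4.78 log2 lower and the exporter Abca1 3.84 lower, while the exporter Abcg1 and the hydroxylase Cyp27a1 were listed at 0 in all 14 HT-22 libraries. Fatty acid synthesis was mixed too, with 3 of 8 genes higher and 5 lower (3 and 1 under all 4 scalings).

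**Figure D5:**
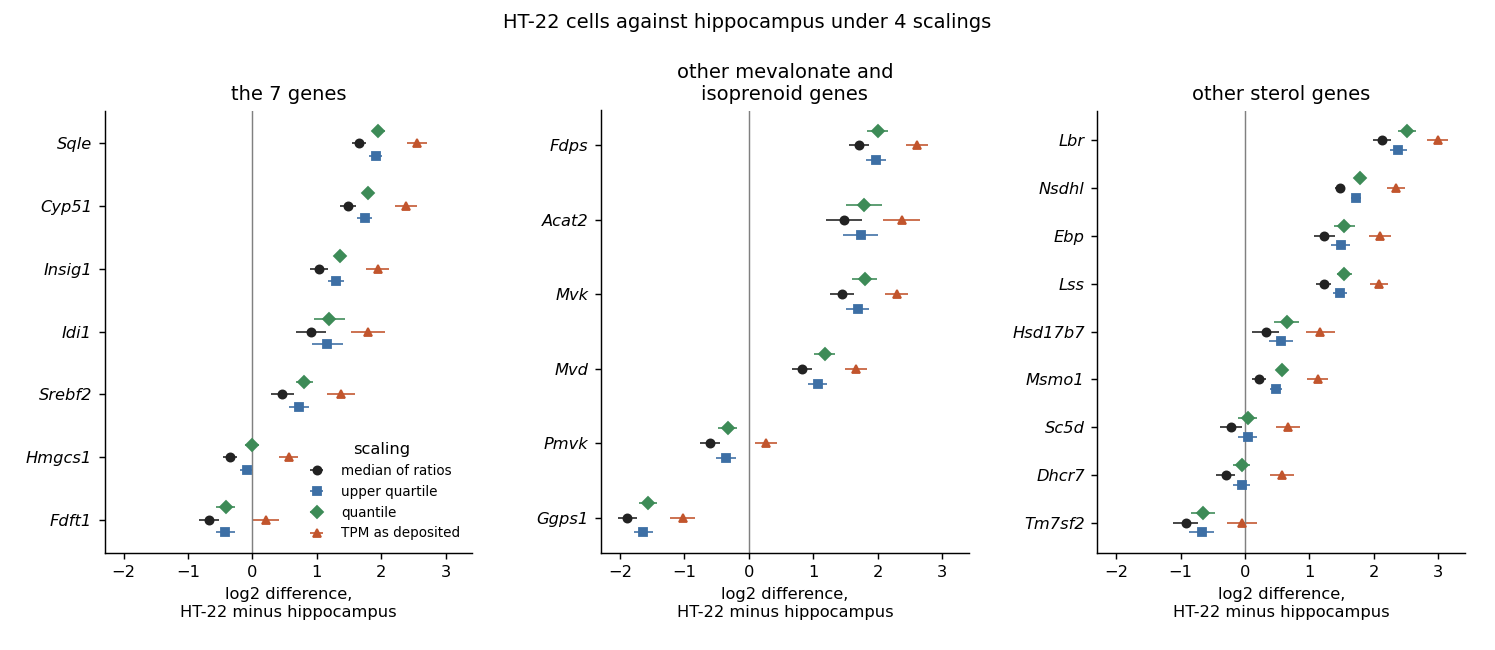
Log2 difference between HT-22 cells and hippocampus (x axis, 95% confidence interval) for the 7 genes and for 6 other mevalonate and isoprenoid genes and 9 other sterol genes (y axis) under 4 scalings. The order of the 7 genes is the same under the 4 scalings while their place against 0 shifts, so that Hmgcs1 (-0.35 to 0.56) and Fdft1 (-0.67 to 0.21) cross 0.

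The mean standardised profile of the 7 genes over libraries was set beside every other gene of mean 5 scaled TPM or more, as a description. Over the 17 hippocampus libraries Phf23 was most like it (Pearson r = 0.859), followed by Rnf130 (0.823), Cd99l2 (0.797), Tmem65 (0.782) and Slc25a3 (0.780), out of 10982 genes. The 7 genes themselves did not all follow this profile, with r from 0.23 for Srebf2 and 0.29 for Fdft1 to 0.80 for Sqle. Over the 14 HT-22 libraries Smpd4 was most like it (0.943), followed by Gvin1 (0.938), Usp4 (0.938), Wdr77 (0.933) and Ccnd2 (0.931). There Insig1 and Cyp51 (0.93 each) and Srebf2 (0.91) followed the profile and Idi1 did not (-0.11). The values share their libraries and scaling factors.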

How the data were processed

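Long RNA was depleted of ribosomal RNA and sequenced per the labels' protocols, with 1 gene abundance table per library and no pooling, from 17 hippocampus and 14 HT-22 libraries. Each deposited table lists, per the file headers, a gene's Coverage, FPKM and TPM. TPM as deposited summed to 999823 to 999917 per library, and FPKM as deposited was used with the deposited coverage signal only for relative depth. None of these is a read count, absolute depth is unknown, and neither count models nor counting intervals were used. Submitters' processing notes list FastQC, cutadapt 1.18, BWA 0.7.17, HISAT2 2.1.0, bedtools 2.26.0 and StringTie 1.3.4d, without roles.

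TPM was summed per gene identifier and scaled by the median of ratios. limma 3.58.1 (R 4.3.3; trend and robust moderation) was fitted on log2(scaled TPM + 1), which understates changes of low genes, for genes of mean 1 or more. Fits held 17 hippocampus, 14 HT-22 or all 31 libraries. p-values were adjusted by Benjamini-Hochberg over all genes, with calls below 0.05. The fit was tested on simulated data. Summaries used Python 3.11.15, numpy 2.4.6 and pandas 2.3.3. The 7 genes and all lists were chosen with earlier results of these data known, the immediate-early list and the omission of 3 libraries after seeing values. Named were the 7 genes, Scap and other genes fixed by name, up to 8 called genes of the other lists per contrast, and the 5 genes of most similar profile per system. Genes outside this rule (Ctsb, Akap9, Mki67, Vim and the synthesis genes high in 3 libraries) were named after their values were seen. Short-RNA libraries were not used here. Some listed genes are counted in their lists and not reported here by name.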

Additional observations from a re-analysis of the deposited data

Results flagged for a closer look

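In HT-22 cells under reverse peptide and scramble LNA, replicate 4 lay far above the other 3 libraries for Insig1 (178.4 scaled TPM) and for Cyp51 (178.4 scaled TPM). The gap to the nearest library was 0.877 of the whole range of the group for Insig1 and 0.842 for Cyp51, above the critical value of 0.829 for 4 samples. Of 14 combinations of gene and group tested 2 were flagged, and chance flags about 1 in 20 groups. The library is one of the 3 with high immediate-early genes, and the cause was not tested.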

How the results depend on the processing

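Of the counts of the 7 genes called in 19 comparisons, 379 alternatives stayed within 1.5 times of the reported count and 17 did not. On TPM as deposited the count was 6 between genotypes at 6 months (10339 of all genes called, against 304 scaled), 5 in WT mice from 3 to 6 months (6077 against 33), 0 in APP mice from 3 to 12 months (286 against 581) and 1 for genotype with age (5910 against 83). In HT-22 cells it was 2 for the peptide under anti-Hsf1 LNA (4197 against 0), 6 for the LNA under Aβ42 (8766 against 4), 6 for its average (4776 against 0) and 4 for the difference of differences (4379 against 0). With genes of mean 5 or more it was 1 between genotypes at 6 months (Fdft1) and 1 in APP mice from 3 to 6 months (Cyp51). With only the groups compared it was 0 in APP mice from 3 to 12 months, and with array weights 2 for the LNA under Aβ42 (1840 of all genes, against 4). Counts over all genes also moved where those of the 7 did not or by other settings: with only the groups compared they were 4 at 3 months and 39 at 6 months between genotypes (against 54 and 304) and 2 and 146 in APP mice from 3 to 6 and 3 to 12 months (against 423 and 581). With no filter they were 34 and 115 between genotypes at 3 and 6 months, with array weights 15 and 149 at 3 and 12 months (the latter against 77), and for genotype with age 37 to 165 over the settings that kept all libraries and scaled them, and 22 to 206 with 1 library left out (against 83). Leaving out 1 library at a time gave 0 to 1 genes between genotypes at 3 months, 0 to 1 at 6 months and 0 to 1 in APP mice from 3 to 12 months. Of 1086 alternatives for 42 single-gene results 1047 kept direction and side of the threshold, 20 lost and 10 gained a call, and 9 turned. On TPM as deposited the turned values were 0.083 log2 for Fdft1 between genotypes at 6 months, -0.2854 for Insig1 and -0.0774 for Fdft1 in WT mice from 3 to 6 months, 0.0108 for Hmgcs1 and 0.0145 for Insig1 in APP mice from 3 to 6 months, and -0.0361 for Insig1 from 6 to 12 months. Between HT-22 cells and hippocampus they were 0.5631 for Hmgcs1, 0.2118 for Fdft1 and 0.4541 for Scap. The causes of these changes in calls and direction were not tested.

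The replicate numbers did not pair the libraries. Deviations of same-numbered libraries correlated at -0.148 to 0.227 in mice (3 of 40 pairs above 0.1) and at -0.216 to 0.575 in HT-22 cells (3 of 19). With the replicate block, Cyp51 in APP mice from 3 to 12 months kept -0.491 log2 (adjusted p = 0.0208, limma), and the count of the 7 genes called changed in none of the 18 comparisons fitted so. Over all genes the block moved the count from 43 to 14 for the average of genotypes, from 83 to 130 for genotype with age, from 33 to 51 in WT mice from 3 to 6 months, from 4 to 2 for the LNA under Aβ42 and from 0 to 1 for the peptide under scramble LNA. With 2 to 4 samples a group and unknown absolute depth, a gene that was not called may still have changed within its interval. No smallest detectable change was determined.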
